A study of Homo sapiens with 8 samples.

Results

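H3K27me3 was described over the imprinted gene cluster of 11p15, from 2000001 to 2970000 on chromosome 11 (hg19), in 2 human lymphoma B-cell lines. The members are 7 genes with spans rounded to 1 kb and extended by 5 kb on each side: H19, IGF2, TH, ASCL2, KCNQ1, CDKN1C and PHLDA2. All islands of H3K27me3 that overlapped the cluster were taken, 39 of 58144 in LY19WT and 54 of 47432 in LY19Y646F. LY19WT carried wild-type EZH2, and LY19Y646F constitutively expressed the EZH2-Y646F mutant, altered in its catalytic SET domain, from a CMV promoter. Both lines were untreated immortalized lymphoma cells. Whether LY19Y646F arose from 1 clone, and how much mutant protein it made, is not given in the sources used here. Each line had 3 ChIP libraries and 1 input library. Islands, the stretches that the authors called enriched, were called on the merged ChIP libraries against the input of the same line. Each line is thus represented by a single list, which carries no replicate error, and the lines were compared without a test. The lists may lack a small number of islands, so a stretch without islands means none in the lists analysed here. The files hold no expression values, so B-cell markers and transcripts of the cluster could not be examined.

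H3K27me3 is the repressive mark that EZH2, the catalytic subunit of Polycomb repressive complex 2, writes on histone H3. In imprinted clusters the copy of a gene from 1 parent is silenced, and DNA methylation at imprinting control regions, noncoding RNA and, at some genes, Polycomb marks take part. The 11p15 cluster has a pair of such domains. In the telomeric domain the noncoding RNA H19 is made from the maternal copy and the growth factor gene IGF2 from the paternal copy. In the centromeric domain the noncoding RNA KCNQ1OT1, which is read antisense within KCNQ1, accompanies silencing of the paternal copies of KCNQ1, CDKN1C and PHLDA2. The reads do not separate the parental copies, so every value below is a sum over both.

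The microRNA miR-675, which is cut from the H19 transcript, is shown because the H19 body was covered by islands in LY19WT alone. Its mature arms from RefSeq (GRCh38.p14) are given with the seed, bases 2 to 8, in capitals.
hsa-miR-675-5p: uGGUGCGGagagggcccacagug
hsa-miR-675-3p: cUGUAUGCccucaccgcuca

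Promoters are shown for H19 and for 3 neighbours in the intervals where the lists of the lines differed most, because CpG-rich promoters are common places of Polycomb binding. They are RefSeq sequences on GRCh38.p14, with 250 bases before and 50 after the gene start, matched by symbol, with each CG in capitals. The table at hand held a promoter for 1 of the 7 members. The H19 model behind its sequence measures 6.09 kb against 3 kb for the span used here, so its start is not the end of that span. The islands are on hg19, and positions were not converted, so whether an island covered any of these 300 bases was not read.
H19 (minus strand): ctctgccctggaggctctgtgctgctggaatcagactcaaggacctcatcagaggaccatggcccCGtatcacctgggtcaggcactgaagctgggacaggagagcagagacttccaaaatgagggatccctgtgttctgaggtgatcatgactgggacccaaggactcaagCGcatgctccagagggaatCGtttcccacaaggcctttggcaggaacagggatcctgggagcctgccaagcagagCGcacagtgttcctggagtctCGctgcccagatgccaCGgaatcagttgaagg
C11orf21 (minus strand): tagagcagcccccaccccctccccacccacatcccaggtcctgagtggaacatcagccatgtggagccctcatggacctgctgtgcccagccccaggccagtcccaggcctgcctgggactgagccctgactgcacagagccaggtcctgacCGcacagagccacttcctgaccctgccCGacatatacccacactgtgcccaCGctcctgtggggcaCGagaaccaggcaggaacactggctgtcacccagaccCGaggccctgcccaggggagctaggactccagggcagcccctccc
TSSC4 (plus strand): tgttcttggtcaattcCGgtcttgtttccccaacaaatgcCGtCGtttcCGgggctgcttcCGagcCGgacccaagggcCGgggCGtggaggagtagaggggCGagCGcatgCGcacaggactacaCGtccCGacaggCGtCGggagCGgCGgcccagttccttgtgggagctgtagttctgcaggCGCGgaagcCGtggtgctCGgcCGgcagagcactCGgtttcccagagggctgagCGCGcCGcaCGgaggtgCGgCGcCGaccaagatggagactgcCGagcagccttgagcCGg
KCNQ1DN (plus strand): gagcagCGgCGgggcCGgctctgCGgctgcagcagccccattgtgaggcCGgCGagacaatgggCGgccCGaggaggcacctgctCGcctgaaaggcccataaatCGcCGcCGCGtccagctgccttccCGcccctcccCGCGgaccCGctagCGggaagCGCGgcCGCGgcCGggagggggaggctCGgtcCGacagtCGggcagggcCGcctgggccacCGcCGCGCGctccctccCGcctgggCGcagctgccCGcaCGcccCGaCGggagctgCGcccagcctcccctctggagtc

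The dinucleotide CG, which reads the same on both strands, was counted in each promoter. The H19 promoter held 6 and the C11orf21 promoter 5, and 66.3% and 70.3% of the 35093 promoters in the table held at least as many. TSSC4 held 32 and KCNQ1DN 38, counts that 18.9% and 9.91% of promoters reached. H19 and C11orf21 thus lay below the median of 14, and TSSC4 and KCNQ1DN above it.

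The cluster was covered more widely by H3K27me3 islands in LY19Y646F than in LY19WT, the opposite order to that over the autosomes. Islands covered 315.2 kb of the 970 kb in LY19WT, or 32.5%, and 504.0 kb or 52% in LY19Y646F, a difference of 19.5 percentage points. Over all autosomes coverage was 19.8% in LY19WT and 13.7% in LY19Y646F. On the rest of chromosome 11 it was 29.1% and 16.4%. Of 2892 autosomal stretches of 970 kb, 25.6% were covered at least as much as the cluster in LY19WT and 3.32% in LY19Y646F. A difference of at least the same size in favour of LY19Y646F was found in 6.74% of these stretches. Higher coverage in LY19Y646F by any amount was found in 35.2% of them, so this order is not rare. The median difference over the stretches, LY19Y646F minus LY19WT, was -0.33 percentage points. In the 1 Mb on the telomeric side of the cluster coverage was 27.8% in LY19WT and 33.7% in LY19Y646F, and in the 1 Mb on the centromeric side 27.2% and 27.7%. Coverage in the flanks therefore differed by 5.98 and 0.58 percentage points, in the same direction as in the cluster but by less. Input density, the input reads per kb of island that reflect DNA abundance and mappability, differed as well. Relative to the autosomal island median, it was 1.03 over the cluster's islands in LY19WT and 0.855 in LY19Y646F. Whether DNA abundance took part in the wider coverage was not tested.

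**Figure D1:**
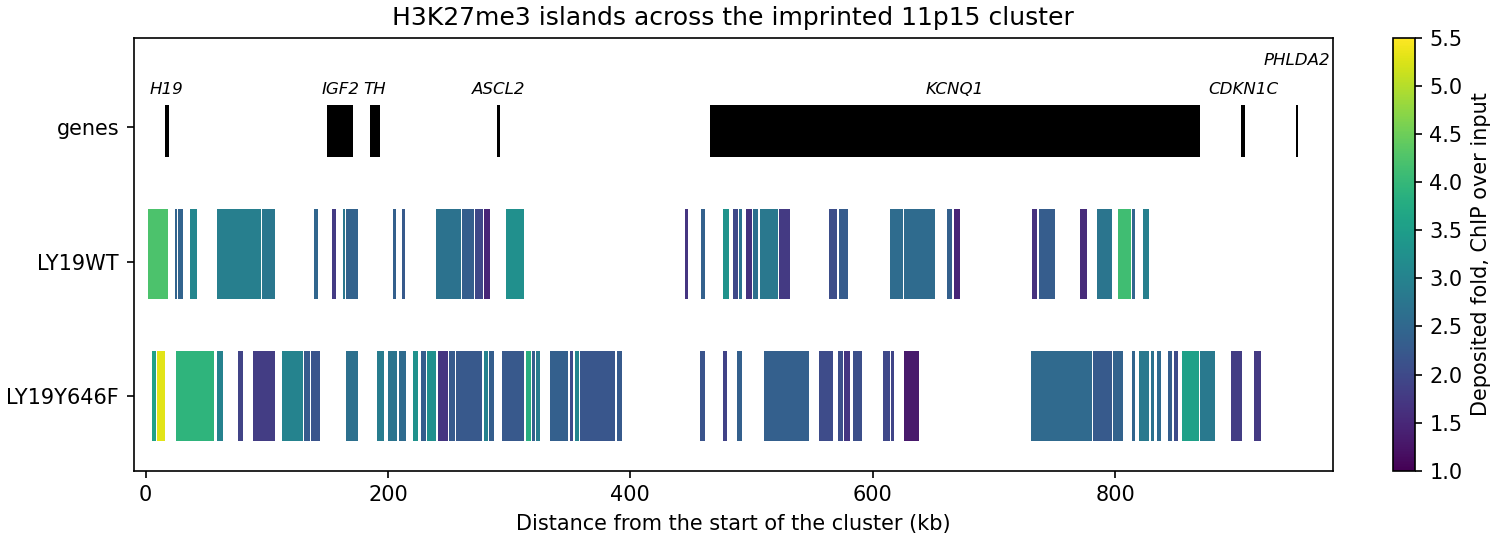
Islands of LY19WT (middle track) and LY19Y646F (bottom track) along the cluster, with the 7 gene spans in black on top; the x axis is the distance from the start of the cluster in kb and colour is the deposited fold of ChIP over input. Between ASCL2 and KCNQ1 islands cover 49.9% of the stretch in LY19Y646F, mostly in its part towards ASCL2, against 11.7% in LY19WT, and PHLDA2 has no island in either line.

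The lines shared less than the full extent of either list. Shared islands made up 215.4 kb, which was 68.3% of the covered length of LY19WT and 42.7% of that of LY19Y646F. The Jaccard index, the ratio of shared to total covered length of the pair, was 0.357, against 0.294 on the rest of chromosome 11 and 0.245 over the autosomes. It was higher in the telomeric and centromeric flanks of 1 Mb, at 0.570 and 0.388. The index rises with the covered share alone. That share was 32.5% in LY19WT and 52% in LY19Y646F for the cluster, against 19.8% and 13.7% over the autosomes. An index expected from coverage was not computed, so the higher value than over the autosomes was not read as closer agreement of the lines. At least 1 bp of overlap was found for 32 of 39 LY19WT islands and for 30 of 54 LY19Y646F islands. The other 24 LY19Y646F islands had no LY19WT counterpart, and 7 LY19WT islands had no LY19Y646F counterpart. These are 24 of 54 and 7 of 39, against 43.4% and 60.7% of the autosomal islands of the lines without a counterpart. The share for LY19Y646F was thus near that of the autosomes, and on the rest of chromosome 11 71.3% of LY19Y646F islands had a counterpart, against 55.6% in the cluster. Most of the cluster's LY19WT coverage was thus also found in LY19Y646F, while more than 50% of the LY19Y646F coverage lay outside it.

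By gene, 3 members carried an island in LY19WT (H19, IGF2 and KCNQ1) and 6 in LY19Y646F, where PHLDA2 alone had none. Among all autosomal windows of 13 kb, the median length of the extended spans, 32.2% held an island in LY19WT and 24.7% in LY19Y646F. The extended KCNQ1 span measures 414 kb and is not comparable with these windows. Coverage was higher in LY19Y646F at 4 members (TH, ASCL2, KCNQ1 and CDKN1C), an order found in 15.6% of the 13 kb windows. It was higher in LY19WT at H19 and IGF2, an order found in 25.6% of the windows. Both shares are over all windows, 33531 and 54895 of 214774, and in the others the lines were equal. Among the members only PHLDA2 was equal, with no island in either line. KCNQ1, counted among the 4, is too long to be set against these windows. When the LY19WT list was shortened to the covered length of the other, IGF2 turned to 1.29 points more coverage in LY19Y646F, the difference at KCNQ1 went from 13.3 to 29.0 points, and 5 members were covered more in LY19Y646F. Without the extension of the spans 3 members were, as ASCL2 left the count. The 7 genes neighbour each other, and the same stretch of chromatin can reach over several of them, so they are not independent.

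**Figure D2:**
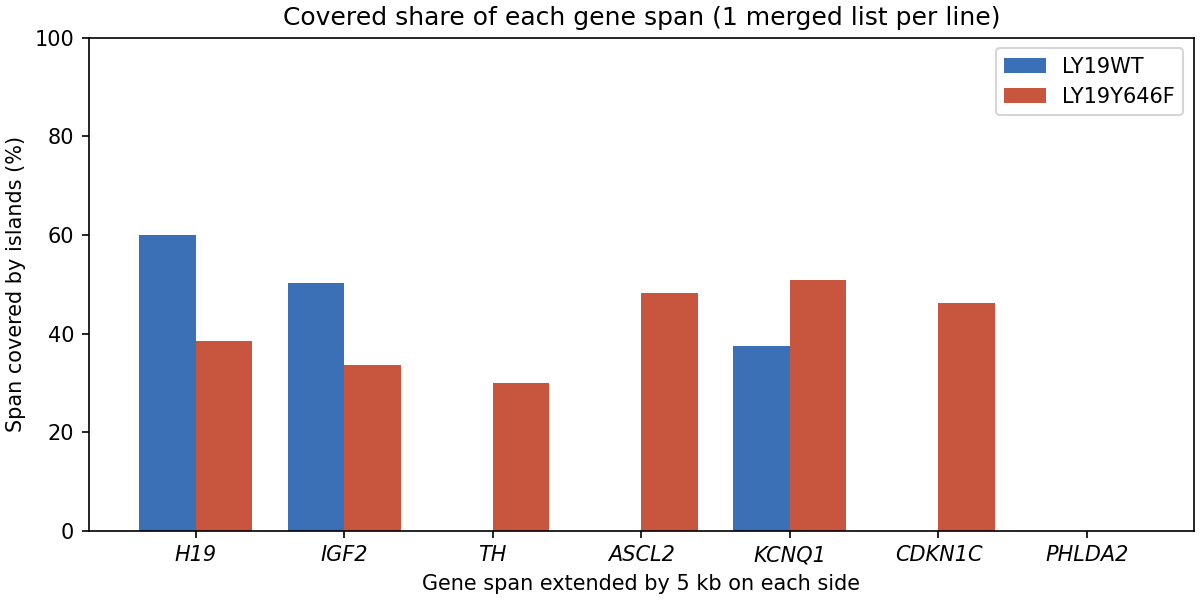
Percentage of each gene span, extended by 5 kb on each side, that islands covered in LY19WT (blue) and LY19Y646F (red); each bar is 1 merged list and has no error. H19 and IGF2 are covered more in LY19WT, at 60% and 50.3%, while TH, ASCL2 and CDKN1C are covered in LY19Y646F alone.

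H19 encodes a long noncoding RNA made from the maternal copy that is abundant in fetal tissue and mostly silent after birth. Islands covered 60% of the extended H19 span in LY19WT and 38.5% in LY19Y646F. In LY19WT a single island ran from 2001601 to 2018800, over 93.3% of the gene span from 2016001 to 2019000. It held 1598 ChIP and 123 input reads, and its deposited fold of 4.23 (95% counting interval 3.52 to 5.08) was the highest of the cluster in that line and above 98.8% of LY19WT autosomal islands. The intervals given here cover counting error only. LY19Y646F had islands from 2004801 to 2008400 and from 2009401 to 2016000, which stopped at the edge of the gene span. The second had 319 ChIP and 23 input reads and a fold of 5.29 (3.47 to 8.08), the highest of the cluster in LY19Y646F. With spans rounded to 1 kb, an edge closer than that cannot be placed inside or outside the gene. The folds of the lines overlapped in their counting intervals, while coverage of the gene body was found in LY19WT alone. The same LY19Y646F island had 0.414 times the autosomal median of input density and 1.16 times that of ChIP density. The LY19WT island had 0.850 times the median of input and 1.62 times that of ChIP. The highest fold of the cluster in LY19Y646F thus came with ChIP density above the line's median, at 1.16 times. Input was well below its median there, at 0.414 times.

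Between H19 and IGF2, the interval that by the textbook map holds the shared imprinting control region and enhancer-blocking sites, coverage was 46.4% in LY19WT and 66.6% in LY19Y646F. The longest LY19WT island of the cluster ran from 2059001 to 2094800, with 2490 ChIP and 277 input reads and a fold of 2.93, and LY19Y646F islands covered 40.2% of it. In LY19Y646F an island of 31.8 kb ran from 2024601 to 2056400, with 1596 ChIP and 155 input reads and a fold of 3.93 (3.33 to 4.64), of which LY19WT islands covered 34%. This LY19Y646F island had 0.579 times the autosomal median of input density and 1.2 times that of ChIP density. From 2106601 to 2138800 LY19WT had no island, and LY19Y646F covered 75.8% of that stretch. All 6 LY19WT islands of the interval and 5 of 7 LY19Y646F islands overlapped the other line, and the LY19Y646F island from 2088801 to 2106600 lay to 93.3% under LY19WT islands. Shared stretches made up 64.1% of the LY19WT and 44.7% of the LY19Y646F coverage of the interval.

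IGF2, the gene of a fetal growth factor related to insulin, had 50.3% of its extended span under islands in LY19WT and 33.5% in LY19Y646F. Its start at 2171000 lay inside an island in both lines. These islands almost coincided, the LY19WT island spanning 2165601 to 2175600 and the LY19Y646F island 2165001 to 2175400. They held 692 ChIP and 93 input reads in LY19WT and 456 and 66 in LY19Y646F, with folds of 2.42 (1.95 to 3.01) and 2.64 (2.04 to 3.41). The log2 ratio of the folds was 0.12, with a counting interval from -0.36 to 0.61, so the lines were not separated at the IGF2 start. LY19WT had further islands in the gene body, from 2153401 to 2157200 with a fold of 1.78 and from 2162601 to 2164400 with a fold of 2.78. No LY19Y646F island overlapped either of these. By the gene order of the RefSeq table, INS, the insulin gene, lies between IGF2 and TH. Coverage of this interval was 32.9% in LY19WT and 31.4% in LY19Y646F, all of it from the islands over the IGF2 start. Whether these islands reached INS was not read.

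TH encodes tyrosine hydroxylase, the rate-limiting enzyme of catecholamine synthesis, and neurons and adrenal cells rather than B cells are known for its expression. Its extended span was covered to 30.0% in LY19Y646F and held no island in LY19WT, where the nearest island lay 11 kb from the gene start at 2193000. The LY19Y646F island ran from 2191001 to 2196400 over the gene start, with 196 ChIP and 26 input reads and a fold of 2.88 (1.91 to 4.33). Its ChIP density was 36.3 reads per kb, 0.869 times the autosomal island median of the line, and its input was 0.572 times the median. Low ChIP density and low input therefore met in the island at the TH start. From TH to ASCL2, coverage was 47.6% in LY19WT and 77.1% in LY19Y646F, and 89.2% of the LY19WT coverage there was shared. It contains the third longest LY19WT island, from 2239601 to 2260200, with 1599 ChIP and 193 input reads and a fold of 2.7, of which LY19Y646F covered 81.6%.

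ASCL2 encodes a basic helix-loop-helix transcription factor that is imprinted in mouse placenta and directs follicular helper T cells. The extended span was covered to 48.3% in LY19Y646F and held no island in LY19WT. In LY19Y646F the coverage came from an island on either side, from 2283601 to 2287800 with a fold of 2.33 and from 2294001 to 2312200 with a fold of 2.23. The gene body from 2290001 to 2292000 itself held no island in either line. The gene start lay 2 kb from the nearest LY19Y646F island and 5.6 kb from the nearest LY19WT island, from 2297601 to 2312200. The difference at ASCL2 thus rests on how far flanking islands reached, and without the extension coverage of the gene was 0 in both lines.

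The interval from ASCL2 to KCNQ1, from 2292001 to 2466000, is the longest between members. Islands covered 11.7% of it in LY19WT and 49.9% in LY19Y646F. By gene order it holds C11orf21, TSPAN32, CD81, TSSC4 and TRPM5. CD81 is a widely expressed tetraspanin of the cell surface, TSPAN32 is a tetraspanin of blood cells, and TRPM5 is a cation channel of taste cells. LY19WT had no island from 2312201 to 2444800, a stretch of 132.6 kb, and LY19Y646F islands covered 48.6% of it. The LY19Y646F coverage ended at 2393200, followed by 64.6 kb without an island in that line. Its main island there ran from 2358201 to 2387600, with 1412 ChIP and 245 input reads, a fold of 2.2 and an input of 0.990 times the autosomal median. A smaller island from 2314001 to 2317600 ranked behind only 2 other LY19Y646F islands of the cluster in fold, at 3.84 (2.33 to 6.32), from 171 ChIP and 17 input reads. The longest LY19Y646F islands of the interval thus had folds near the line's median for the cluster. Folds of 3.84, 3.05 and 2.85 came from short islands with input of 0.561, 0.633 and 0.627 times the autosomal median. Their ChIP densities were 1.14, 1.02 and 0.945 times the median, and other short islands of the interval had folds of 2.02 to 2.33. Which of the 5 genes lay under LY19Y646F islands was not read, as the hg19 positions of these genes were not used here.

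KCNQ1 encodes the pore-forming subunit of a voltage-gated potassium channel of heart and inner ear and fills 404 kb of the cluster. Its extended span was covered to 37.6% by 21 islands in LY19WT and to 50.9% by 22 islands in LY19Y646F, and 98.0 kb were covered in both. The gene start at 2466001 lay in no island, 4.4 kb from the nearest in LY19WT and 4 kb in LY19Y646F. Cut into 4 equal stretches of 101 kb, the gene had coverage, from start to end, of 46.1%, 51.5%, 20.6% and 35.2% in LY19WT. In LY19Y646F the values were 55.2%, 36%, 38% and 73.3%. The second stretch was thus covered more in LY19WT and the other 3 more in LY19Y646F, with the widest difference in the last.

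Single islands of KCNQ1 show the same alternation. The second longest LY19WT island of the cluster, from 2625801 to 2651800, had 1959 ChIP and 249 input reads and a fold of 2.56, and LY19Y646F covered 46.9% of it. The LY19Y646F island inside it, from 2625801 to 2638000, had the lowest fold of that line in the cluster, 1.3, with 468 ChIP and 137 input reads. The longest LY19Y646F island of the cluster, from 2730601 to 2780600, measured 50 kb with 2485 ChIP and 373 input reads and a fold of 2.54. LY19WT covered 44.4% of it with shorter islands. The next, from 2510401 to 2547200, had 1556 ChIP and 252 input reads and a fold of 2.36, with 56% of it also under LY19WT islands. Next to the H19 island, the highest folds of LY19WT in the cluster were those of the islands from 2802401 to 2812800, at 4.11 (3.23 to 5.25), and from 2476801 to 2481200, at 3.32 (2.2 to 5.01). LY19Y646F islands covered 38.5% and 63.6% of these. Neither line had an island from 2671801 to 2730600, inside a stretch of 92.6 kb that was empty in LY19Y646F. KCNQ1OT1 lies within KCNQ1 by the RefSeq table, but its hg19 position was not used here, and its place relative to that gap was not read.

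CDKN1C and PHLDA2 restrain growth, CDKN1C as the cyclin-dependent kinase inhibitor p57 and PHLDA2 as a pleckstrin homology protein that limits placental growth. LY19WT had no island from 2827801 to the end of the cluster, 142.2 kb that hold the end of KCNQ1, CDKN1C and PHLDA2. LY19Y646F islands covered 38.7% of that stretch. The extended CDKN1C span was covered to 46.2% in LY19Y646F, by an island from 2895601 to 2905000 with 390 ChIP and 83 input reads. This island had a fold of 1.79 (1.42 to 2.27), above 39.4% of LY19Y646F autosomal islands, and an input of 1.05 times the autosomal median. It reached over 33.3% of the gene span and ended 2 kb from the gene start at 2907000. The CDKN1C start itself was thus in no island of either line. The interval from KCNQ1 to CDKN1C, which holds the noncoding gene KCNQ1DN, was covered to 60.6% in LY19Y646F and held no LY19WT island. PHLDA2 had no island in either line, with the nearest LY19Y646F island 30.2 kb and the nearest LY19WT island 123.2 kb from its start. A span without islands can still carry the mark below the threshold of calling. ChIP density over called islands of the cluster went down to 43.7 reads per kb of island (LY19WT) and 35.2 (LY19Y646F).

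**Figure D3:**
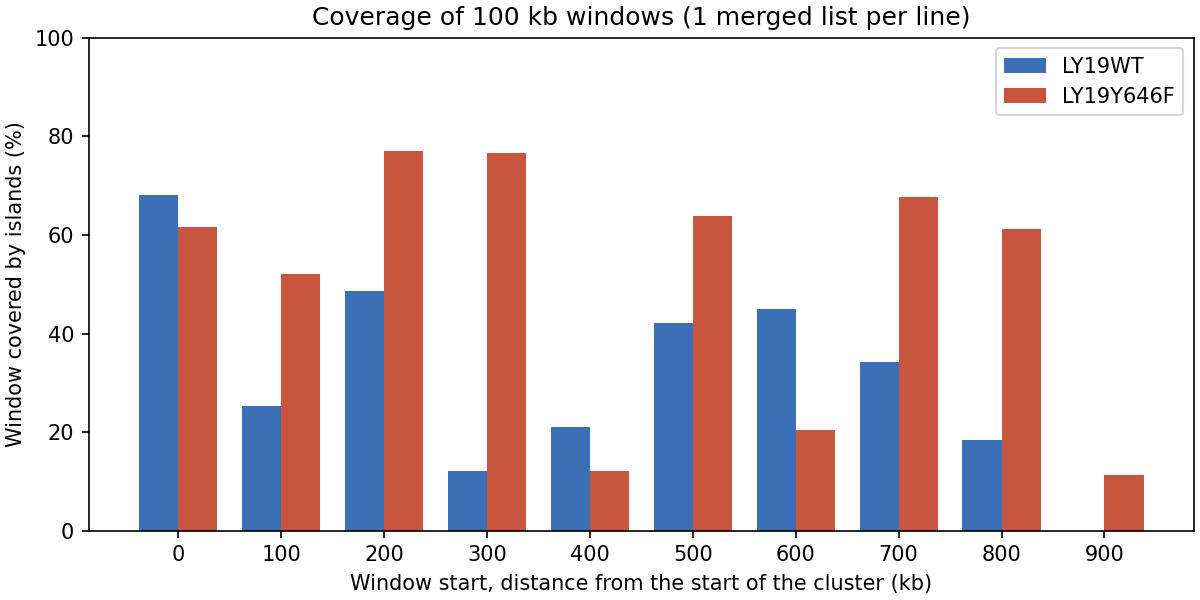
Percentage of each 100 kb window covered by islands in LY19WT (blue) and LY19Y646F (red) by distance of the window start from the start of the cluster in kb; the last window reaches past the cluster's end. Bars for LY19Y646F are taller in 7 of 10 windows, and the window at 300 kb shows 12.2% against 76.6%.

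In windows of 100 kb, coverage was higher in LY19Y646F in 7 of 10 and higher in LY19WT in 3, against 26.9% and 36.3% of all autosomal windows. The autosomal shares are 7528 and 10151 of 27938 windows, and in the others the lines were equal. No island was found in 49.9% of autosomal windows in LY19WT and in 55% in LY19Y646F. No window of the cluster was equal in both lines, so the shares over all windows are not a like comparison. The difference reached 50 percentage points in favour of LY19Y646F in 1 window, from 2300001 to 2400000, covered to 12.2% in LY19WT and 76.6% in LY19Y646F. Over the autosomes 2.64% of windows passed this limit in that direction. In favour of LY19WT no window of the cluster reached 50 points, against 9.57% over the autosomes. At 25 points the counts were 5 windows in favour of LY19Y646F, against 8.74%, and 0 in favour of LY19WT, against 18.7%. The 3 windows covered more in LY19WT began at 2000001, 2400001 and 2600001, with differences of -6.6, -8.8 and -24.6 points, and neighbouring windows share islands.

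Folds of the cluster's islands ranked high within LY19Y646F, as did those of the telomeric flank. The median fold was 2.44 in LY19WT (range 1.49 to 4.23) and 2.33 in LY19Y646F (range 1.3 to 5.29), against 2.28 and 1.9 over the autosomal islands of each line. In the telomeric flank it was 2.22 in LY19WT and 2.29 in LY19Y646F, and in the centromeric flank 2.33 and 2.07. A fold above the line's autosomal median was found for 27 of 39 LY19WT islands and 46 of 54 LY19Y646F islands, against 49.7% and 50% by the choice of that limit. In the top 10% of fold were 4 LY19WT and 18 LY19Y646F islands, against 10% in each line. By ChIP density, a ranking added after seeing the data, the top 10% held 5 LY19WT and 7 LY19Y646F islands, against 10% in each line. The 18 LY19Y646F islands in the top 10% of fold had input densities of 0.414 to 0.848 times the autosomal median (median 0.642) and ChIP densities of 0.869 to 1.25 times (median 1.07). The other 36 had a median input of 0.933 and a median ChIP density of 1.08 times. Input was below the autosomal median in 18 LY19WT and 45 LY19Y646F islands of the cluster, against 49.9% over the autosomes in both lines. In LY19Y646F the high folds therefore stood beside low input at ChIP densities like those of the other islands, and a fold is a ratio to input by construction. Whether this low input reflects DNA abundance was not tested.

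**Figure D4:**
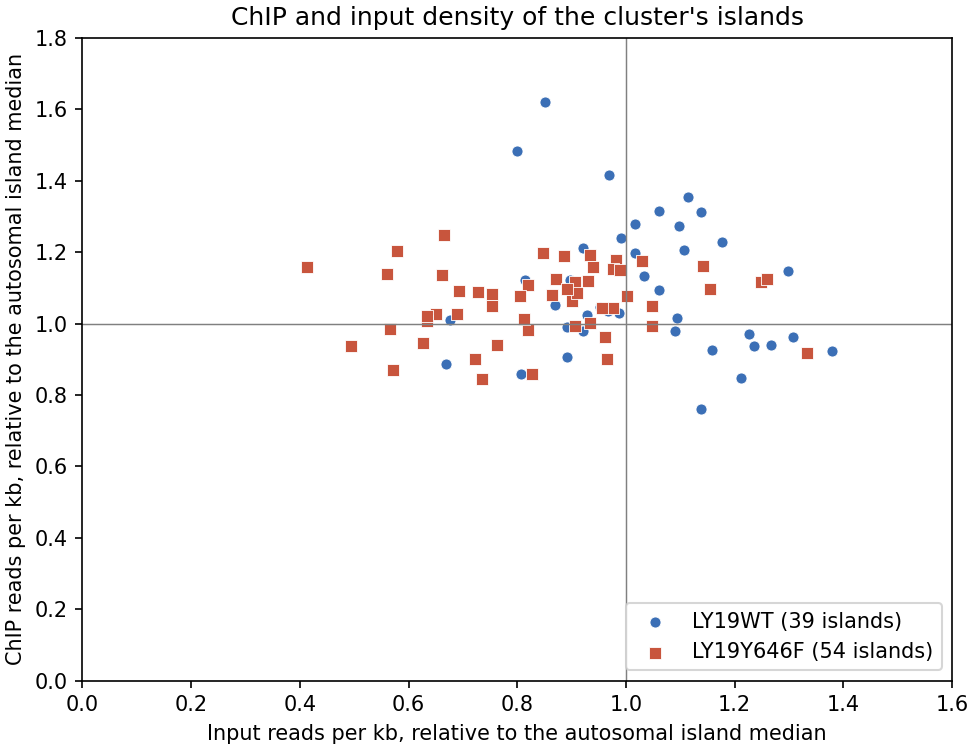
ChIP against input reads per kb of each island in the cluster, both relative to the autosomal island median of the line (grey lines at 1), for LY19WT (circles, 39 islands) and LY19Y646F (squares, 54 islands). LY19Y646F islands spread to the left, down to 0.414 times the median input, within a narrow range of ChIP density, while the highest LY19WT island reaches 1.62 times the median ChIP density.

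The number of islands depends on how neighbouring islands are joined, and joined across gaps of up to 5 kb the 39 and 54 islands became 21 in LY19WT and 22 in LY19Y646F. As deposited, the median island of the cluster measured 4.8 kb in LY19WT and 5.5 kb in LY19Y646F, and 3 and 5 islands were wider than 20 kb. Over the autosomes 9.8% of LY19WT and 5.06% of LY19Y646F islands were that wide. Pooled over the cluster, LY19WT islands held 21606 ChIP and 2717 input reads and LY19Y646F islands 22834 and 3629. ChIP density in reads per kb was 68.5 for LY19WT against 45.3 for LY19Y646F, or 1.19 and 1.08 times the autosomal island medians. The pooled fold was 2.59 and 2.4, a log2 ratio of LY19Y646F to LY19WT of -0.11 (counting interval -0.18 to -0.03). For ChIP density scaled to the ChIP total of all islands, a measure without input, the log2 ratio was 0.51. On the rest of chromosome 11 these log2 ratios were -0.42 and 0.47, and over the autosomes -0.39 and 0.53. In the telomeric and centromeric flanks the pooled folds gave -0.17 and -0.53, and the scaled densities 0.57 and 0.21. Over a whole list the scaled density reduces to the inverse of the covered length, 554.6 Mb in LY19WT and 383.6 Mb in LY19Y646F. The autosomal 0.53 thus mainly restates the list lengths, which also enter the other scaled values. All these log2 ratios are of sums over islands called separately in each line, here 315.2 kb and 504.0 kb. They do not compare the same stretches. The relative input of LY19Y646F was 0.855 in the cluster against 0.994 on the rest of the chromosome. In the telomeric and centromeric flanks it was 0.924 and 1.04.

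Where islands of the lines matched by at least 50% of both, single sites could be compared. The cluster had 10 such pairs, and the fold was lower in LY19Y646F in 8, against 72.7% of 8366 autosomal pairs. The median log2 ratio was -0.16, against -0.27 over the autosomes. The counting interval lay below 0 in 2 pairs and above 0 in 1, against 29.3% and 3.13% of the autosomal pairs. The 2 pairs were the islands starting at 2096001 in LY19WT, with folds of 2.78 and 1.8, and at 2297601, next to ASCL2, with folds of 3.24 and 2.23. The pair above 0 started at 2279401, with folds of 1.49 in LY19WT and 2.98 in LY19Y646F. In the remaining 7 the interval included 0, so a difference was not detectable at this depth. Scaled to the ChIP total of all islands, ChIP density was higher in LY19Y646F in all 10 pairs, 2 of which had the higher fold there already. The median was 0.53. The same was found for 96.4% of autosomal pairs, with a median of 0.55. This measure leaves out input, and the longer LY19WT list shifts every pair towards LY19Y646F. Its direction was therefore not read as a difference between the lines.

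**Figure D5:**
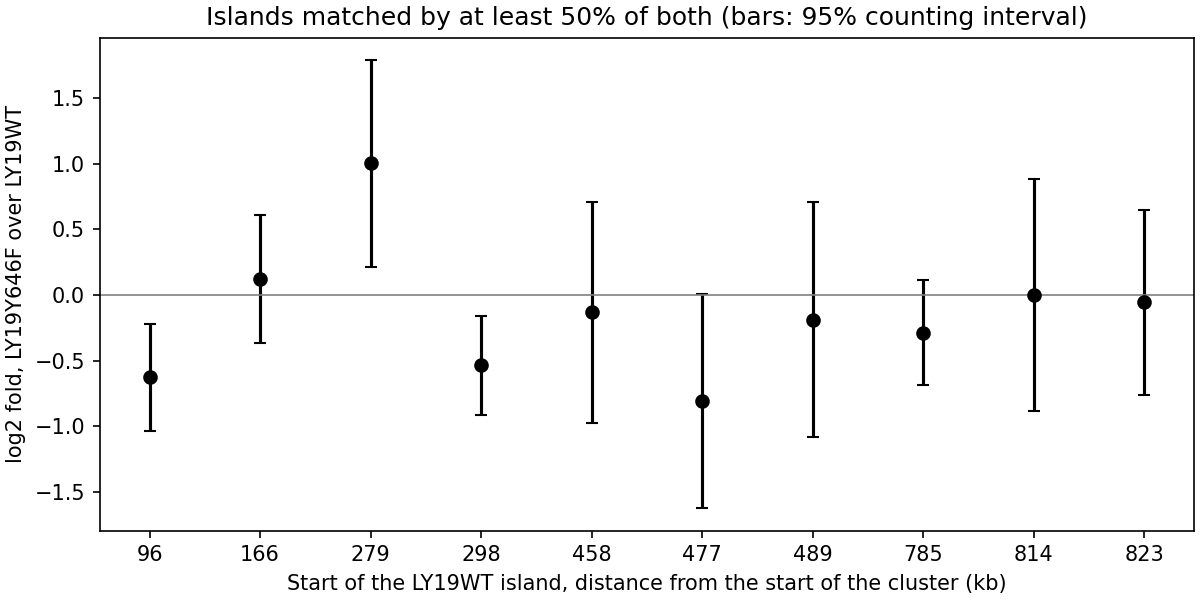
The log2 ratio of deposited fold, LY19Y646F over LY19WT, for the 10 matched island pairs by distance of the LY19WT island from the start of the cluster in kb; bars are 95% counting intervals and cover no replicate error. The points lie between -0.81 and 1.00, and the interval excludes 0 in 3 pairs.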

How the data were processed

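The files were 2 island lists. The tools named per the submitters' processing notes are SICER, bedtools, SAMtools 1.3.1 and Bowtie2 2.2.9, and the build is hg19. Per the labels, replicates were merged before calling against input at an FDR of 0.001. The deposited counts are raw ChIP and input reads per island. The deposited fold, a linear ratio, equals ChIP over input reads divided by 1 constant per list, 3.07 for LY19WT and 2.62 for LY19Y646F, called the library ratio here. The deposited p-value and FDR were used only to filter or rank islands. Islands of LY19WT held 37556030 ChIP reads in all, and those of LY19Y646F 17410034; library totals were not used here.

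Gene spans came from the rule that defines the cluster, and island positions are 1-based. Strands are textbook knowledge. An island that overlapped a span was counted whole for densities and clipped for coverage. Counting intervals use the Poisson error of the read counts on the log scale. All 7 members are named, with the 3 longest islands and the 3 of highest fold of each line, and other islands by their place at a member. Some of those, and the ranking by ChIP density, were chosen after their values were seen. Members and lists were chosen with earlier results of these data known. Of 14 further genes of the domains, all 14 matched the RefSeq table (GRCh38.p14) and were used for their order only. Scripts ran under Python 3.11.15 with pandas 2.3.3, numpy 2.4.6 and scipy 1.17.1 and were tested on simulated lists.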

Additional observations from a re-analysis of the deposited data

How the results depend on the processing

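No paired analysis was possible because the replicates of each line were merged before islands were called. For the same reason no replicate could be left out. Coverage of the cluster stayed higher in LY19Y646F under each alternative tried. The cut to equal length removed LY19WT islands alone, so it could not have reversed this order. At an FDR of at most 1e-05 no value for the cluster moved. At 1e-10 the Jaccard index was 0.335. When islands up to 5 kb apart were joined, the result was coverage of 35.6% in LY19WT and 57.3% in LY19Y646F, a difference of 21.6 points, and 21 and 22 islands in place of 39 and 54. When the lowest-ranked LY19WT islands were dropped until both lists had equal length, LY19WT kept 15 islands in the cluster and coverage was 22.1%, the difference 29.9 points, the Jaccard index 0.262 and the log2 ratio of pooled fold -0.26. There IGF2 turned to 1.29 points more coverage in LY19Y646F, since fewer LY19WT islands remained, and 5 members were covered more in LY19Y646F, against 4 as reported and 3 without the extension of the spans. The log2 ratio of pooled fold was -0.34 without the library ratio. ChIP density scaled to the ChIP total of all islands gave 0.51, but this measure leaves out input and carries the difference in list length. The share of windows at least 50 points higher in LY19Y646F was 25% at 50 kb, 10.0% at 100 kb and 0% at 500 kb. Without replicates, and with as few as 15 input reads in an island, small differences in fold are not resolved.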
